A study of Mus musculus with 27 samples.

Results

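The 77 genes described here encode the parts of the mitochondrial oxidative phosphorylation machinery that the nucleus carries. They were chosen by symbol and level alone: every row of the count table named Nduf with the letter a, b, c, s or v and a number, Sdha to Sdhd, Uqcr, Cox4 to Cox8 or Atp5, with a mean of at least 1 CPM (a count scaled by the library's total) over the 27 libraries. Of the 22340 rows, 81 had such a symbol and 77 also reached that level. By symbol 36 belonged to complex I, 4 to complex II, 8 to complex III, 12 to complex IV and 17 to ATP synthase. Just inside the limit lay Cox6a2 at 2.25 CPM and Atp5s at 6.65 CPM, and just outside it lay Cox7a1 at 0.882 CPM, Cox4i2 at 0.869 CPM, Ndufa4l2 at 0.724 CPM and the pseudogene Atp5l2-ps at 0.646 CPM. All 77 also passed the count filter of the test. In 4 cases the symbol is a loose guide to the role: the Ndufa4 protein is now regarded as a subunit of complex IV, Cox7a2l joins complexes into supercomplexes, and the products of Atp5s and Atp5sl are not structural subunits of ATP synthase. Subunits with other names, such as Cyc1 of complex III, fall outside the choice.

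Oxidative phosphorylation is how mitochondria turn the energy of reduced nutrients into ATP. Complexes I and II pass electrons from NADH and succinate to ubiquinone, complex III hands them to cytochrome c, complex IV gives them to oxygen, and the proton gradient built on the way drives ATP synthase. Apart from complex II, which the nucleus encodes entirely, each complex joins nuclear-encoded subunits with subunits made from mitochondrial DNA. Neurons cover most of their large energy need by this route, and loss of blood flow cuts off its oxygen.

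Total RNA depleted of ribosomal RNA was sequenced from the cortex of C57BL6 mice aged 7 to 8 weeks. In animals given a stroke, the right middle cerebral artery was closed with a suture for 35 min while the common carotid artery was tied, under isoflurane, and the cortex of the occluded (ipsilateral) or the opposite (contralateral) hemisphere was taken after 3, 6, 12 or 24 h of reperfusion. Sham animals had the same anaesthesia and exposed arteries without the filament. This gave 9 groups of 3 libraries, with each replicate number standing for 1 day of surgery. Contralateral cortex comes from operated animals and is therefore not untreated tissue. The side taken from sham animals, and whether both hemispheres of an animal were used, are not stated in the labels.

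Library totals ran from 26505996 to 48830897 counts, and the 77 genes are short and abundant, with a median annotated transcript of 865 bases against 2750 over all tested genes and a median level of 46.1 CPM against 9.64 CPM. From here on CPM are scaled after TMM normalization. The summed level of 10 neuron markers lay between 3700 and 6100 CPM in all libraries. Markers of neighbouring tissue were present unevenly: 5 choroid plexus markers summed to 711 CPM in ipsilateral replicate 1 at 3 h, 409 and 341 CPM in contralateral and ipsilateral replicate 1 at 6 h, 188 CPM in contralateral replicate 1 at 24 h, 82.5 CPM in contralateral replicate 1 at 12 h, and at most 23.6 CPM elsewhere. Sums of 5 striatal neuron markers ran from 75.4 to 292 CPM. The part of these admixtures in the results was not tested. Contralateral replicate 1 at 3 h stood apart: its trend with gene GC content spanned 1.03 log2 units, where no other library exceeded 0.343. Ipsilateral replicate 1 at 24 h had the largest share of mitochondrial ribosomal RNA, 40.4% of its counts, where the lowest share was 24.4%. The median coefficient of variation of the 77 genes within a group was 19.1% in contralateral cortex at 3 h and between 4.91% and 9.1% in the other groups.

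The summed level of the 77 genes fell on the occluded side and was lowest after 24 h. In sham cortex the 3 libraries had sums of 6900, 6360 and 5940 CPM. Contralateral sums at 24 h were 6460, 6090 and 6110 CPM, and ipsilateral sums were 4740, 5100 and 4700 CPM. All 3 ipsilateral libraries at 24 h thus lay below every sham and every contralateral library of any time. As group means, ipsilateral cortex held 101.0% of the contralateral sum after 3 h, then 87.3%, 88.1% and 77.9% after 6, 12 and 24 h. At 3 h the ipsilateral libraries (5680, 6440 and 5800 CPM) overlapped the contralateral ones (5940, 6040 and 5690 CPM). In tissue samples such as these, fewer cells of a type and less RNA per cell cannot be told apart.

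**Figure D1:**
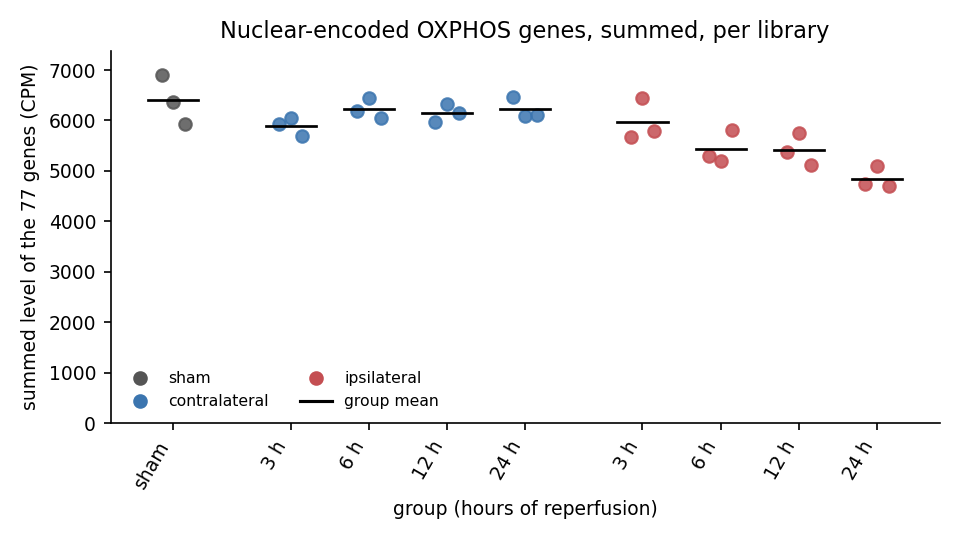
Summed level of the 77 genes in CPM (vertical axis, from 0) for each library (points) in the 9 groups (horizontal axis, hours of reperfusion), with the group mean as a bar. Ipsilateral libraries at 24 h sit between 4700 and 5100 CPM, below all sham and contralateral libraries.

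Taken gene by gene, 69 of the 77 had their lowest group mean in ipsilateral cortex at 24 h, which was so for 21.8% of all tested genes. The other low points were ipsilateral at 6 h for 4 genes, ipsilateral at 12 h for 2 and contralateral at 3 h for 2. Their highest mean was in sham cortex for 33 genes.

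Which of these genes respond to occlusion was asked by comparing the 2 hemispheres at each time (quasi-likelihood test of edgeR on all 18087 tested genes, adjusted p under 0.05). At 24 h, 43 of the 77 were lower on the ipsilateral side, 55.8% of them, and 0 were higher. Over all tested genes, 9.36% were called lower and 9.74% higher. The estimate was negative for 76 of the 77, with a median log2 fold change of -0.36 against 0.03 over all tested genes. In 64 of the 77 all 3 ipsilateral libraries lay below all 3 contralateral ones, which held for 17.6% of all tested genes. The number called was 16 without contralateral replicate 1, 20 without ipsilateral replicate 1 and 18 without ipsilateral replicate 3, with medians of -0.33, -0.35 and -0.32. Atp5a1, Atp5j, Cox6b1, Cox6c, Cox7a2, Ndufa4, Ndufb4, Sdha, Sdhb and Uqcrc1 kept their call under every alternative run.

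**Figure D2:**
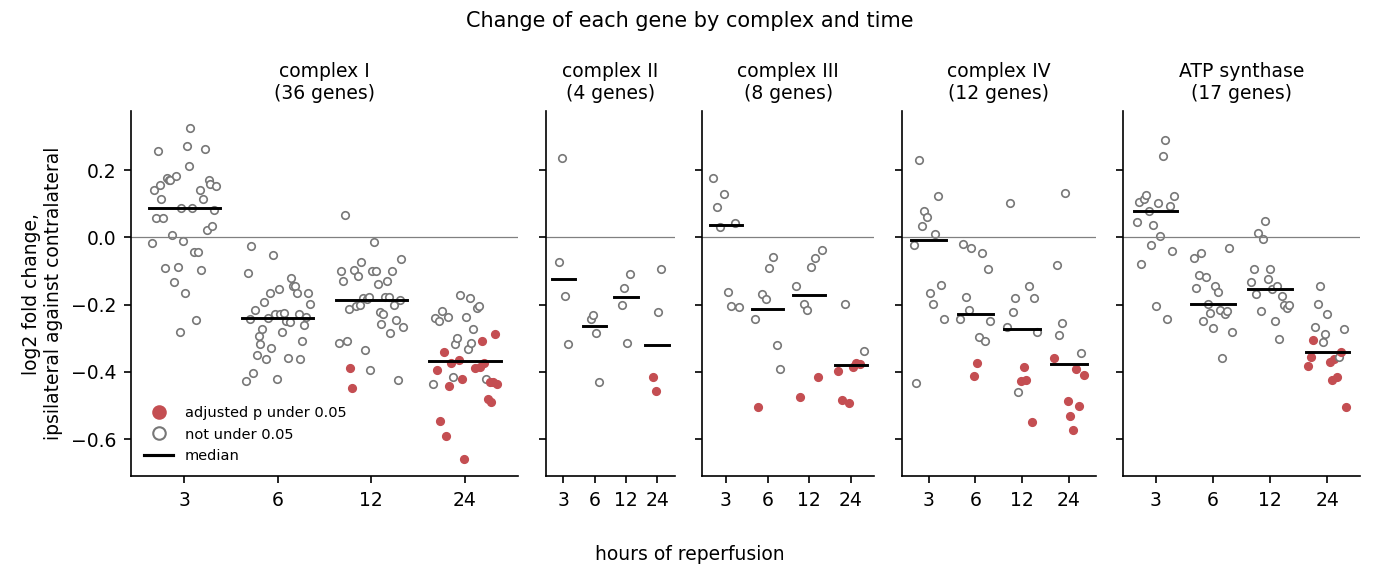
Log2 fold change of ipsilateral against contralateral cortex (vertical axis) for each of the 77 genes (points) by complex (panels) and hours of reperfusion (horizontal axis), filled where the adjusted p is under 0.05, with the median as a bar. Points lie around 0 at 3 h and nearly all below it at 24 h, when only Cox6a2 is above.

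The control regions of these genes are background for what follows, since NRF1, the ETS factor GABP and YY1 are known activators of respiratory genes. RefSeq promoter windows (GRCm38.p6, 250 bases before to 50 after the start) were matched for 65 of the 77 genes and for 13070 of the tested genes. The NRF1 letters GCATGCGC, read on both strands, stood in 10 of the 65 windows (15.4%) and in 4.69% of those of tested genes. The YY1 letters AAGATGGC also stood in 10 (15.4%, against 3.99%), and the ETS letters CCGGAAG in 15 (23.1%, against 15.2%). In all, 30 of the 65 had at least 1 of the 3. A TATA box (TATAAA) was in 7.69% of the windows, against 8.06% of those of tested genes. A match is a string of letters and was not tested as a binding site. Split by the call at 24 h described above, NRF1 letters stood in 6 of the 38 genes called lower and 4 of the 27 others, ETS letters in 9 and 6, and YY1 letters in 7 and 3. These shares were not compared by a test. Sites to show were searched with a single chromosome left out. On the chromosomes searched, 9 genes that were called lower hold an NRF1 or ETS match wholly before the RefSeq start. They are shown to let the sites be compared, as 30 bases 5′ to 3′ on the strand of the gene with matches in capitals.
Sdhb (chr4:140961206-140961235, plus strand): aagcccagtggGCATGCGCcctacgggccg
Ndufa6 (chr15:82354356-82354385, minus strand): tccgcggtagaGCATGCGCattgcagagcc
Ndufa11 (chr17:56717691-56717720, plus strand): acctgcactgcGCGCATGCGCgcacgcctt
Atp5k (chr5:108434431-108434460, minus strand): ctttcactgcgGCGCATGCGCctttctggc
Cox6b1 (chr7:30626124-30626153, minus strand): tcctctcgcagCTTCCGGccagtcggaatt
Atp5h (chr11:115419939-115419968, minus strand): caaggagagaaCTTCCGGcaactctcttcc
Uqcrh (chr4:116075062-116075091, minus strand): agtatgccgcaCTTCCGGccaggtcgccgg
Uqcr11 (chr10:80406869-80406898, minus strand): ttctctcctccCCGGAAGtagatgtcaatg
Ndufs3 (chr2:90904730-90904759, minus strand): cccgcgtccgcCCGGAAGaagagtcactgc
The first 4 carry NRF1 letters, and in Ndufa11 and Atp5k the capitals cover 2 overlapping matches, 1 per strand. The other 5 carry ETS letters, on either strand. The matches begin between 10 bases (Uqcrh) and 83 bases (Ndufa6) before the RefSeq start. The GENCODE annotation, used for the gene coordinates here, starts farther upstream for several of these genes: by its bounds the matches of Sdhb, Cox6b1, Atp5h and Ndufs3 lie inside the gene and that of Atp5k spans its first base, whereas those of Uqcrh, Uqcr11, Ndufa6 and Ndufa11 lie before it.

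Complex I, the entry point for NADH, had 19 of its 36 genes called lower at 24 h, with a median of -0.37. Among its 7 nuclear-encoded core subunits, which carry the flavin, the iron-sulfur clusters and the quinone site, 6 fell, among them Ndufv1, Ndufv2 and Ndufs8. Of the 28 accessory subunits 12 fell. The core gene that was not called, Ndufs1, encodes the largest iron-sulfur subunit (mm10, chromosome 1, 63143596 to 63176833, minus strand). It had 92.6, 102 and 91.3 CPM ipsilaterally and 114, 102 and 114 CPM contralaterally. The groups touched at 102 CPM, and its estimate of -0.21 ± 0.11 (SE) did not pass (adjusted p = 0.177).

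Ndufv1, which binds NADH (chromosome 19, 4007384 to 4012806, minus strand), had 72.8, 84.3 and 75 CPM ipsilaterally at 24 h, and 105, 98.5 and 109 CPM contralaterally. Every ipsilateral library was below every contralateral one, a drop of 0.43 ± 0.13 on the log2 scale (adjusted p = 0.0158). The largest estimate of the complex was that of Ndufb4, an accessory subunit of the membrane arm (chromosome 16, 37647170 to 37654453, minus strand). Its ipsilateral libraries had 15.9, 14.5 and 13.3 CPM and its contralateral ones 25.6, 20.6 and 22.9 CPM. Ndufb4 fell by 36.7% (log2 fold change -0.66 ± 0.15, adjusted p = 0.00221). The smallest estimate was that of Ndufb2, another accessory subunit, with -0.17 ± 0.16 (adjusted p = 0.492).

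Ndufa4 had the smallest p of the 77 genes at 24 h. It lies on chromosome 6 (11900292 to 11907497, minus strand). Sham cortex had 132, 109 and 104 CPM of it. Contralateral libraries at 24 h had 122, 107 and 115 CPM, while ipsilateral ones had 78.3, 76.2 and 74.1 CPM. Already at 12 h the ipsilateral libraries (77.7, 85.4 and 81.8 CPM) lay clear of the contralateral ones (108, 116 and 111 CPM). The fall was 33.6% at 24 h (log2 fold change -0.59 ± 0.11, adjusted p = 0.000462), and -0.45 ± 0.11 at 12 h on the log2 scale (adjusted p = 0.00673).

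Complex II, which is also the succinate dehydrogenase of the citric acid cycle, was split. Its catalytic flavoprotein Sdha (chromosome 13, 74322254 to 74350280, minus strand) had 164, 158 and 152 CPM ipsilaterally at 24 h, 225, 200 and 206 CPM contralaterally and 221, 194 and 190 CPM in sham cortex. Sdha fell by 25.0% against the contralateral side (log2 fold change -0.42 ± 0.09, adjusted p = 0.00167). Sdhb, the iron-sulfur subunit whose promoter letters stand above (chromosome 4, 140961203 to 140979193, plus strand), had 58, 64.4 and 59.1 CPM against 82.7, 82.4 and 84.1 CPM. The 3 contralateral values were nearly level and the ipsilateral ones clearly below, a drop of 0.46 ± 0.12 on the log2 scale (adjusted p = 0.00804). The membrane anchors did not pass: Sdhc had an estimate of -0.22 ± 0.15 (adjusted p = 0.323) and Sdhd of -0.10 ± 0.14 (adjusted p = 0.692). Whether the anchors differ from Sdha and Sdhb was not tested.

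Complex III had the largest share called, 6 of 8 genes, with a median of -0.38. Uqcrc1, a core protein of the complex (chromosome 9, 108936633 to 108949623, plus strand), had 102, 114 and 105 CPM ipsilaterally and 150, 152 and 150 CPM contralaterally. It fell by 28.9% (log2 fold change -0.49 ± 0.12, adjusted p = 0.00558), the largest estimate of the complex. The Rieske iron-sulfur protein gene Uqcrfs1, the hinge protein gene Uqcrh, the core gene Uqcrc2 and the small subunit genes Uqcr10 and Uqcr11 fell as well, by between 0.37 and 0.49 on the log2 scale. Uqcrb and Uqcrq did not pass, with estimates of -0.20 ± 0.13 and -0.34 ± 0.21, the former being the smallest of the complex.

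Of the 12 genes of complex IV, cytochrome c oxidase, 7 fell, with a median of -0.38. Cox6c (chromosome 15, 35925886 to 35938246, minus strand) had 88.3, 84.5 and 82.8 CPM ipsilaterally at 24 h, 123, 128 and 119 CPM contralaterally and 136, 122 and 127 CPM in sham cortex. No ipsilateral library came near the others, a fall of 30.9% (log2 fold change -0.53 ± 0.11, adjusted p = 0.00148). Cox7a2 (chromosome 9, 79755361 to 79759878, minus strand) had 63.6, 58 and 51.4 CPM against 96.2, 81.5 and 79.4 CPM, the largest estimate of the complex at -0.57 ± 0.13 (adjusted p = 0.00332). The regulatory subunit gene Cox4i1, the most abundant of the complex per kilobase of transcript in sham cortex (388 CPM per kb), had 224, 248 and 210 CPM against 284, 310 and 280 CPM, and fell by 0.36 ± 0.11 on the log2 scale (adjusted p = 0.0191). Cox6b1, Cox7b, Cox8a and the supercomplex factor gene Cox7a2l fell by between 0.39 and 0.50 on the log2 scale.

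Genes of complex IV that did not pass were Cox5a, Cox5b, Cox6a1, Cox6a2 and Cox7c. Cox6a2 encodes the isoform of heart and skeletal muscle and was at 3.53 CPM per kb in sham cortex, where the widely expressed isoform gene Cox6a1 was at 189 CPM per kb. At 24 h Cox6a2 had 2.42, 2.76 and 2.62 CPM ipsilaterally and 1.46, 2.36 and 3.3 CPM contralaterally, values that overlapped. Its estimate of 0.13 ± 0.28 (adjusted p = 0.787) was the only positive one of the 77. Cox6a1 had 89.2, 89.8 and 91.2 CPM against 97.5, 106 and 119 CPM, with an estimate of -0.26 ± 0.13 (adjusted p = 0.184).

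**Figure D3:**
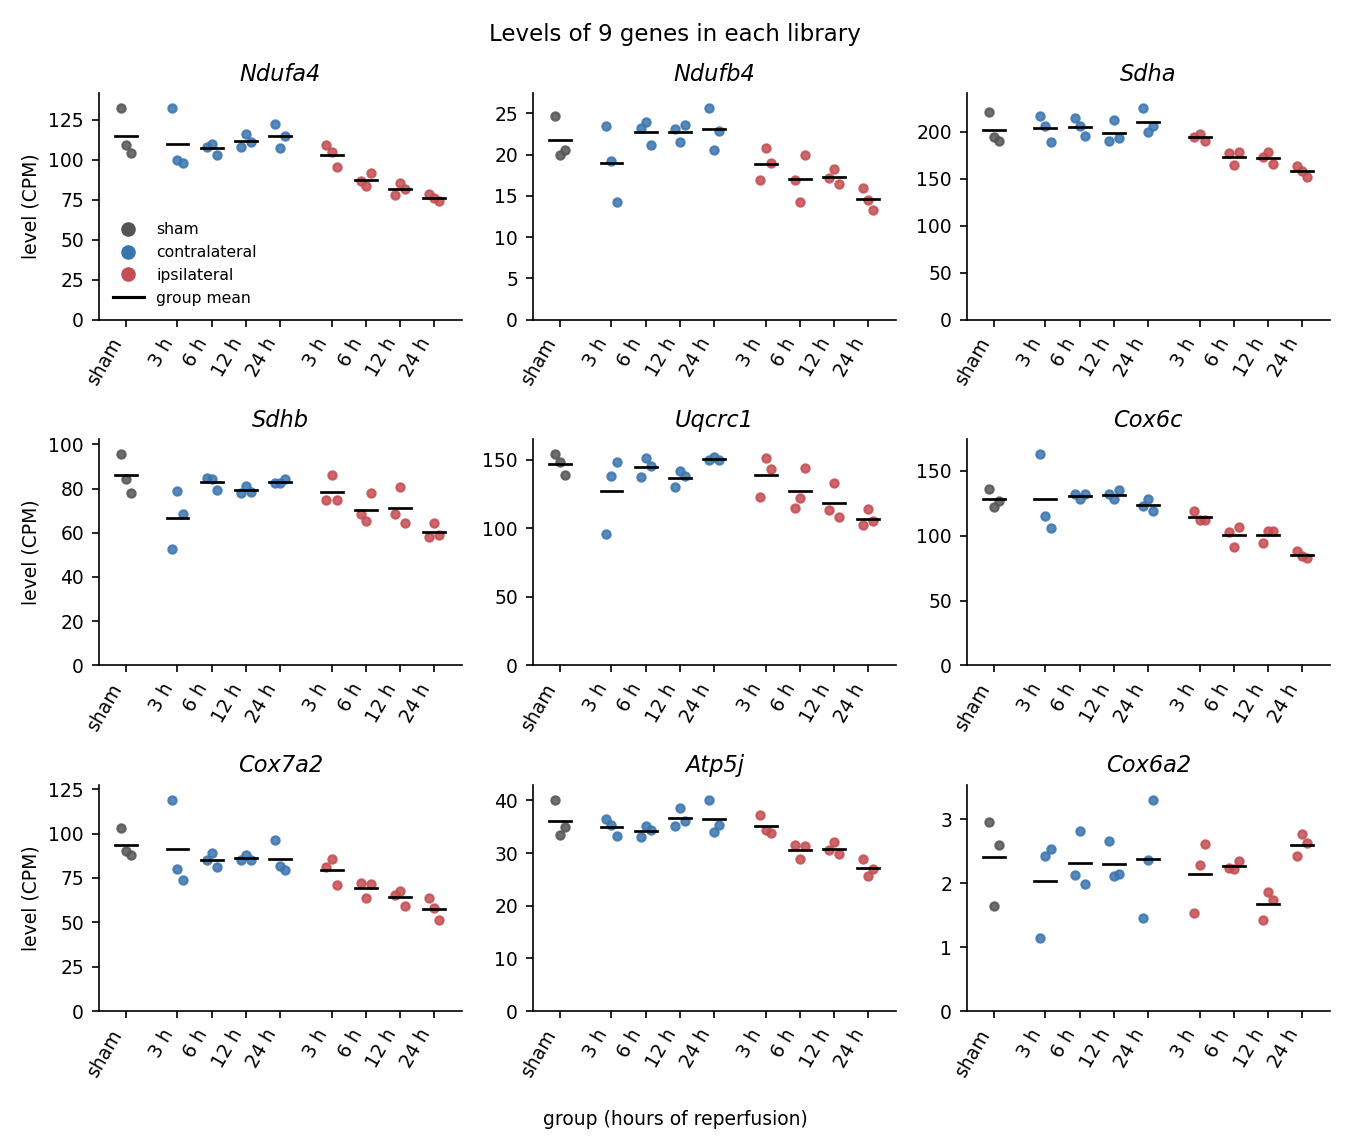
Levels in CPM (vertical axes, each from 0) of Ndufa4, Ndufb4, Sdha, Sdhb, Uqcrc1, Cox6c, Cox7a2, Atp5j and Cox6a2 in each library (points) of the 9 groups (horizontal axes, hours of reperfusion), with group means as bars. In all but Cox6a2 the 3 ipsilateral libraries at 24 h lie below the 3 contralateral ones.

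ATP synthase had 9 of 17 genes called lower at 24 h, with a median of -0.34. In its catalytic head and central stalk 3 of 5 genes fell, in the peripheral stalk 3 of 4, and in the membrane-embedded part 2 of 6. Atp5b, the catalytic beta subunit gene and the most abundant of the 77 per kilobase (435 CPM per kb in sham cortex), had 601, 682 and 628 CPM ipsilaterally and 858, 778 and 810 CPM contralaterally. Its groups did not overlap, and it fell by 21.9% (log2 fold change -0.36 ± 0.10, adjusted p = 0.013). Atp5a1, the alpha subunit gene, fell by 23.2%, from 668 ± 24.3 to 513 ± 36.7 CPM (SD, n = 3; adjusted p = 0.00473). Atp5j, which encodes coupling factor F6 of the peripheral stalk (chromosome 16, 84827866 to 84835625, minus strand), had 28.9, 25.7 and 26.9 CPM against 40.1, 33.9 and 35.3 CPM. Atp5j fell by 0.42 ± 0.10 on the log2 scale (adjusted p = 0.00331).

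The ring of ATP synthase that protons turn is built from 1 protein made by 3 genes, Atp5g1, Atp5g2 and Atp5g3, whose mature products are the same. Atp5g1 had 44.7, 52.4 and 48.6 CPM ipsilaterally and 62, 60.1 and 58.7 CPM contralaterally. Although these values did not overlap, the estimate of -0.31 ± 0.12 missed the threshold (adjusted p = 0.0673). The estimates of Atp5g2 (-0.29 ± 0.13, adjusted p = 0.123) and Atp5g3 (-0.23 ± 0.12, adjusted p = 0.19) missed it too. The largest estimate of this complex by symbol was that of Atp5sl at -0.50 ± 0.15 (adjusted p = 0.0152), and the smallest that of the stalk gene Atp5f1 at -0.15 ± 0.10 (adjusted p = 0.35).

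The fall began before 24 h. At 6 h the estimate was negative for all 77 genes, with a median of -0.23 against -0.02 over all tested genes, and in 39 of the 77 the ipsilateral libraries all lay below the contralateral ones, against 15.9% of all tested genes. Only 3 passed the test, Uqcr11, Cox6c and Cox6b1. An unadjusted p under 0.05 was found for 25 of the 77 and for 4040 of the 18087 tested genes. Of all tested genes 2.14% were called lower and 5.85% higher. Uqcr11, a small subunit of complex III, had 36.5, 33.4 and 48 CPM ipsilaterally and 54.8, 58.9 and 53.5 CPM contralaterally. Replicate 3 stood above the other 2 ipsilateral libraries but still under the contralateral ones, and Uqcr11 fell by 0.50 ± 0.15 on the log2 scale (adjusted p = 0.035). The count rests on single libraries: it was 0 without contralateral replicate 1 or 2 or ipsilateral replicate 1 or 2, 1 without contralateral replicate 3, and 9 without ipsilateral replicate 3. With a correction for transcript length all 3 calls were lost, and with replicate number as a block 5 genes were called.

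At 12 h the estimate was negative for 73 of the 77 genes and the median was -0.18. In 31 of them the groups were separate with the ipsilateral side lower, against 15.7% of all tested genes. The test called 8 lower (4.3% of all tested genes lower, 7.94% higher): Ndufa4, Ndufa3, Uqcrh, Uqcr11, Cox7b, Cox6c, Cox6b1 and Cox7a2. All 3 genes of 6 h were among these 8, and all 8 were among the 43 of 24 h. Cox7b (chromosome X, 106015700 to 106022450, plus strand) had the largest estimate. It had 43.5, 42.4 and 39 CPM ipsilaterally and 56.7, 65.2 and 60.7 CPM contralaterally, a fall of 0.55 ± 0.14 on the log2 scale (adjusted p = 0.0109). With the length correction 3 of the 8 calls were kept. Without 1 library the count was 4 (contralateral replicate 1 or 3) or 2 (contralateral replicate 2, ipsilateral replicate 1 or 3). All 8 calls were kept without ipsilateral replicate 2.

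At 3 h no member was called in either direction, where 0.232% of all tested genes were called higher and 0.0166% lower. The estimate was positive for 49 and negative for 28 of the 77, and the median was 0.06. An unadjusted p under 0.05 was found for 6 of the 77 and for 1939 of the 18087 tested genes. In 2 the ipsilateral libraries all lay below the contralateral ones, against 5.04% of all tested genes. DESeq2 called 0 as well. Without contralateral replicate 1, the library that stood apart on GC content, the median was 0.03.

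The change in the effect itself between 3 h and 24 h was tested as the difference between the 2 hemispheric effects. Of the 77, 3 had a lower effect at 24 h than at 3 h: Sdhb (-0.69 ± 0.17, adjusted p = 0.026), Uqcrc1 (-0.62 ± 0.17, adjusted p = 0.045) and the membrane subunit gene Atp5k (-0.70 ± 0.20, adjusted p = 0.0473). For all tested genes 1.71% had a lower and 1.61% a higher effect, and the median of the 77 was -0.40 against 0.03. These 3 genes had contralateral values at 3 h that were low in replicate 1: Sdhb had 52.8, 78.8 and 68.6 CPM there, Uqcrc1 96.1, 138 and 148 CPM, and Atp5k 37.1, 50 and 45.3 CPM. The count rests on single libraries. Without contralateral replicate 1, 2 or 3 at 3 h it was 7, 22 or 12, and without contralateral replicate 1, 2 or 3 at 24 h it was 1, 1 or 6. It was 0 without ipsilateral replicate 2 at 3 h, 1 without ipsilateral replicate 3 at 3 h or replicate 1 or 3 at 24 h, and 16 with replicate number as a block. Of the 3 genes named, 1 kept its call without contralateral replicate 1 at 3 h, and 0 did without ipsilateral replicate 2 at 3 h, without ipsilateral replicate 1 at 24 h or with both libraries that stood apart left out. In the joint test for any difference between the 4 times 0 of the 77 passed (1.34% of all tested genes did), while DESeq2's likelihood ratio test called 2.

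Sham cortex gave a second reference, which shares its ipsilateral libraries with the comparison above. Against sham, 53 of the 77 were lower at 24 h and 0 higher, with 10.9% of all tested genes lower and 11.3% higher. They were 24 of 36 genes of complex I, 2 of 4 of complex II, 7 of 8 of complex III, 9 of 12 of complex IV and 11 of 17 of ATP synthase. In 69 of the 77 all ipsilateral libraries lay below all sham libraries (20.9% of all tested genes), and the median was -0.40. Leaving out sham replicate 1, the sham library with the highest sum, reduced the count to 24. Both references called 39 genes lower, the contralateral one alone 4, sham alone 14, and neither 20.

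The genes with the smallest p against sham at 24 h were Ndufb11, Atp5k, Ndufa4, Cox7a2, Ndufc1, Cox6c, Uqcr11 and Cox6b1. Ndufb11, an accessory subunit of complex I encoded on the X chromosome (20615326 to 20617619, minus strand), had 29.7, 29.2 and 25 CPM against 43.4, 44.7 and 41.7 CPM in sham, and fell by 0.63 on the log2 scale (adjusted p = 0.000315). Its contralateral libraries at 24 h, 38.2, 34.6 and 35.1 CPM, lay between both groups. Atp5k had 38.6, 43.5 and 32.4 CPM against 75.7, 62.8 and 56.5 CPM in sham and 55.2, 50.2 and 47 CPM contralaterally. Its fall against sham was 0.77 on the log2 scale (adjusted p = 0.000318), beside 0.41 against contralateral cortex.

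Against sham 0 genes were lower at 3 h (0.0166% of all tested genes lower, 0.227% higher), with 3 at an unadjusted p under 0.05 and 0 by DESeq2. At 6 h 8 were lower (1.09% lower and 5.03% higher over all tested genes), namely Uqcr11, Ndufb11, Ndufa4, Cox6b1, Atp5k, Uqcrh, Atp5o and Cox7a2. At 12 h 13 were lower (3.72% lower and 6.58% higher over all tested genes), led by Cox7b and Ndufa4. With the length correction 1 of the 8 calls of 6 h and 6 of the 13 of 12 h were kept. The 6 h count was 0 without sham replicate 1 or ipsilateral replicate 1 or 2, 1 without sham replicate 2, 5 without sham replicate 3 and 13 without ipsilateral replicate 3. The 12 h count was 3 without ipsilateral replicate 1, and 5 without sham replicate 1 or without ipsilateral replicate 3. The medians were -0.11, -0.26 and -0.27 at 3, 6 and 12 h.

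Contralateral cortex was set against sham to ask whether the opposite hemisphere changed. None of the 77 was called at any time by edgeR or DESeq2. Over all tested genes, 0% were called higher and 0.0111% lower at 3 h, 0% and 0.0332% at 6 h, 0.094% and 0.144% at 12 h, and 0.0276% and 0.0829% at 24 h. In order of time the medians were -0.16, -0.05, -0.08 and -0.06. At an unadjusted p under 0.05 there were 21, 0, 1 and 4 of the 77 at these times. Over the 18087 tested genes there were 1563, 778, 1348 and 1171. The median at 3 h was -0.13 without contralateral replicate 1 and -0.09 without sham replicate 1.

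The subunits made from mitochondrial DNA were high at 24 h in 1 ipsilateral library. All 13 had positive estimates at 24 h against contralateral cortex, from 0.15 to 0.97 with a median of 0.55. Of these 0 were called, and 1 had an unadjusted p under 0.05, as had 5842 of the 18087 tested genes. Their summed level was 13600, 6770 and 7310 CPM ipsilaterally and 8360, 7210 and 7520 CPM contralaterally. Only ipsilateral replicate 1, the library rich in mitochondrial ribosomal RNA, stood high, and the other 2 were within or below the contralateral range. At 3 h contralateral replicate 1 stood out in the same way, with 18600 CPM beside 7400 and 8190 CPM in the other 2 libraries. For complex IV the mitochondrial sums at 24 h were 9620, 5040 and 5260 CPM ipsilaterally and 6360, 5750 and 5720 CPM contralaterally, so that replicates 2 and 3 lay below the contralateral libraries. Complex IV made up most of the mitochondrial sum, with a mean of 5520 of 7410 CPM in sham cortex. The ATP synthase genes mt-Atp6 and mt-Atp8 together had only 16.3 CPM there and weigh little in it. The cause of their low level was not tested.

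**Figure D4:**
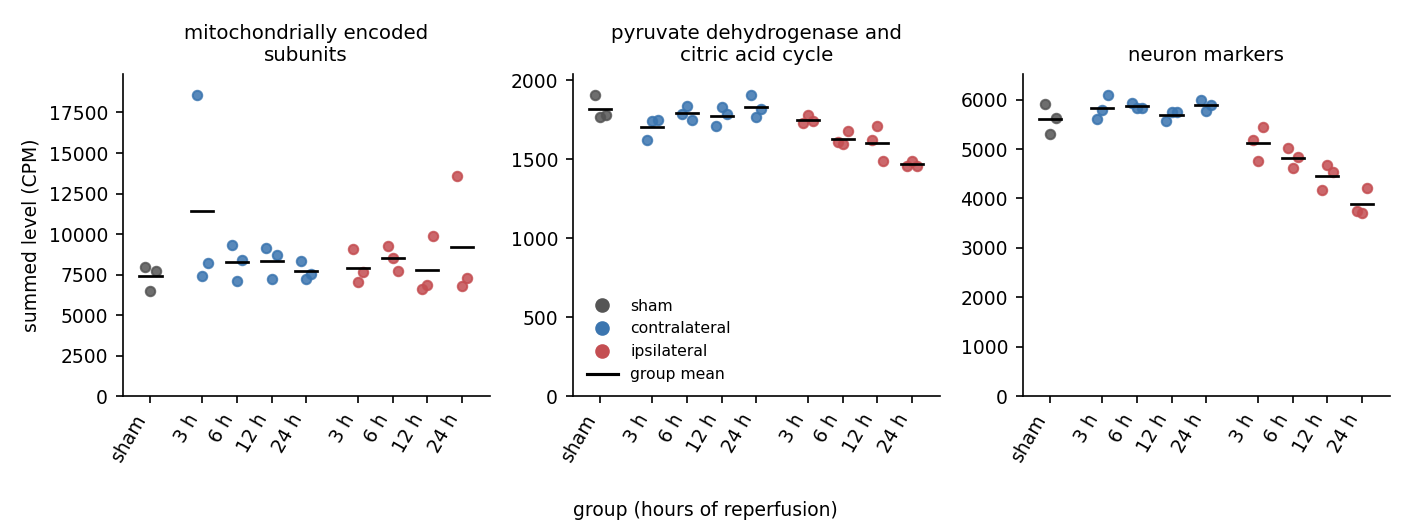
Summed levels in CPM (vertical axes, each from 0) of the mitochondrially encoded subunits, of pyruvate dehydrogenase and citric acid cycle genes and of neuron markers, in each library (points) of the 9 groups (horizontal axes, hours of reperfusion), with group means as bars. The mitochondrially encoded sum is high in 2 single libraries (18600 and 13600 CPM), whereas the other sums are lowest in ipsilateral cortex at 24 h.

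Enzymes that feed the chain fell beside it. Of 17 genes of pyruvate dehydrogenase and the citric acid cycle, 10 were lower at 24 h against contralateral cortex and 0 higher, with a median of -0.35. They included Idh3a, of the NAD-dependent isocitrate dehydrogenase (119 ± 8.99 to 82.6 ± 7.14 CPM, adjusted p = 0.0012), and Pdha1, of pyruvate dehydrogenase (107 ± 5.14 to 77.4 ± 3.64 CPM, adjusted p = 0.00145). Fumarate hydratase, Fh1, was lower at 12 h (-0.46 ± 0.11, adjusted p = 0.00694) and at 24 h (-0.44 ± 0.11, adjusted p = 0.00697). The count was 6 without contralateral replicate 1 or without ipsilateral replicate 3. Of the 80 genes for proteins of the cytosolic ribosome, 1 was lower and 4 were higher, with a median of -0.01. Genes for proteins of the mitochondrial ribosome gave 4 lower and 2 higher of 76, with a median of -0.11. The share lower was 58.8% of the 17 enzyme genes, 1.25% for the cytosolic and 5.26% for the mitochondrial ribosome. Over all tested genes 9.36% were lower, so both ribosome shares of calls lay below the background in this comparison. Still, 57 of the 76 mitochondrial ribosome genes had negative estimates. In 22.4% of the 76 all ipsilateral libraries lay below all contralateral ones, against 17.6% of all tested genes. Against sham at 24 h 14.5% of the 76 were called lower, where 10.9% of all tested genes were.

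Markers of neurons fell as well. Of 10 neuron markers 7 were lower at 24 h, with a median of -0.59, among them the synaptic vesicle gene Syp (626 ± 32.9 to 381 ± 28.7 CPM) and the glutamate transporter gene Slc17a7 (949 ± 69.6 to 576 ± 75.5 CPM). Their summed level lay between 5300 and 5910 CPM in sham cortex, between 5760 and 6000 CPM contralaterally at 24 h, and between 3700 and 4220 CPM ipsilaterally at 24 h, 66.1% of the contralateral mean. The lowest of these markers ipsilaterally at 24 h, Nefm, was at 56.8 CPM. The neuron sum stood at 88% of the contralateral mean at 3 h, 82.2% at 6 h and 78.4% at 12 h. At 3 h its ipsilateral libraries (5190, 4760 and 5440 CPM) all lay below the contralateral ones (5610, 5790 and 6100 CPM). None of the 10 neuron markers was called at that time. Markers of infiltrating leukocytes summed to between 8.9 and 12.5 CPM contralaterally and between 13.6 and 53.7 CPM ipsilaterally at 24 h, highest in replicate 1, and 4 of 6 were higher. Of 6 astrocyte markers 2 were higher at 24 h, Gfap (2.29 ± 0.28, adjusted p = 2.36e-05) and Aqp4 (0.78 ± 0.21, adjusted p = 0.0122), and their sums were 4810, 3450 and 3520 CPM ipsilaterally and 3340, 2870 and 3600 CPM contralaterally. Sums of 5 endothelium markers were 241, 164 and 134 CPM against 159, 163 and 144 CPM, with 1 higher and 1 lower. Of 5 microglia markers 2 were lower and 0 higher. Oligodendrocyte markers gave 0 calls of 5, and mural cell markers 1 higher and 0 lower of 6. Over all tested genes 9.36% were lower and 9.74% higher at 24 h. The part of these cell markers in the fall of the 77 genes was not tested.

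Known regulators of respiratory genes and mitochondrial DNA, not all of them activators, were examined next. Of 18 regulators of mitochondrial biogenesis, 6 were higher and 0 lower at 12 h, and 5 were higher and 2 lower at 24 h, against contralateral cortex. As shares these are 33.3% higher at 12 h, where 7.94% of all tested genes were, and 27.8% higher and 11.1% lower at 24 h, where 9.74% and 9.36% of all tested genes were. The share lower is thus near the background. Higher at 24 h were the GABP subunit genes Gabpa, Gabpb1 and Gabpb2, Nrf1 and Tfam, which encodes the factor that packs and transcribes mitochondrial DNA. Gabpa rose from 12.5 ± 1.61 to 20.4 ± 2.98 CPM (log2 fold change 0.71 ± 0.17, adjusted p = 0.00346), and Nrf1 from 15.4 ± 0.67 to 23.6 ± 5.3 CPM (0.62 ± 0.13, adjusted p = 0.00196). At 12 h they had risen by 0.89 ± 0.17 (adjusted p = 0.000725) and 0.63 ± 0.13 (adjusted p = 0.00227). Yy1 was higher at 6 h (0.53 ± 0.14, adjusted p = 0.0156) and 12 h (0.61 ± 0.14, adjusted p = 0.00393), and at 24 h its estimate was 0.26 ± 0.14 (adjusted p = 0.195).

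Lower at 24 h were Esrrg, a nuclear receptor that drives respiratory genes, and Ppargc1a, a coactivator of NRF1 and of nuclear receptors of the Esrr family. Esrrg fell from 29.5 ± 2.51 to 16.5 ± 0.35 CPM (-0.84 ± 0.15, adjusted p = 0.000392), and its call held under every alternative. Ppargc1a fell from 46.3 ± 6.18 to 34.9 ± 4.44 CPM (-0.41 ± 0.14, adjusted p = 0.0427). That call was lost under 7 of 17 alternatives, with adjusted p from 0.0572 to 0.148, among them those without contralateral replicate 1 or 3 or without ipsilateral replicate 1 or 2. The number higher at 24 h was 3 without contralateral replicate 1 or without ipsilateral replicate 2 or 3, and at 12 h 3 without ipsilateral replicate 1. Tfam was not called at 24 h without contralateral replicate 1, 2 or 3 or ipsilateral replicate 2 or 3, with adjusted p from 0.0793 to 0.262. Gabpb1 lost its 24 h call without ipsilateral replicate 3 (adjusted p = 0.0562) and with only the compared groups (adjusted p = 0.0633). Gabpb2 lost it without contralateral replicate 1 (adjusted p = 0.092) and without ipsilateral replicate 2 (adjusted p = 0.0575).

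**Figure D5:**
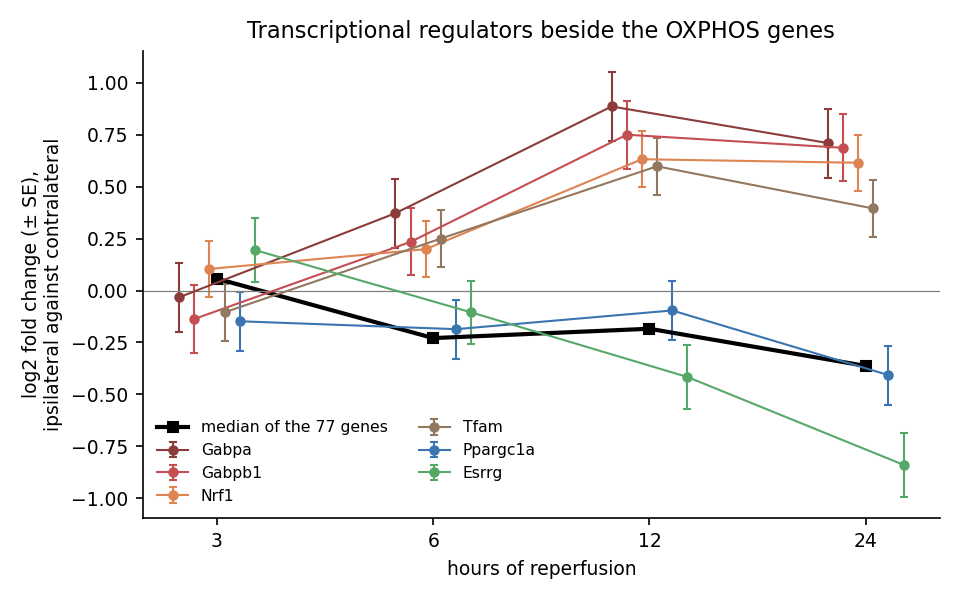
Log2 fold change of ipsilateral against contralateral cortex (vertical axis, bars show SE) at 3, 6, 12 and 24 h of reperfusion (horizontal axis) for Gabpa, Gabpb1, Nrf1, Tfam, Ppargc1a and Esrrg, with the median of the 77 genes as a black line. Gabpa, Gabpb1, Nrf1 and Tfam lie above 0 at 12 and 24 h while the median of the 77 genes is below it.

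Many of the 77 start close to a neighbour. In the GENCODE annotation 31 have a protein-coding gene starting within 1000 bases in the opposite direction, and 28 of these partners were tested. The 28 genes next to a tested partner had a median of -0.37 at 24 h against contralateral cortex, with 18 called lower. Their partners had a median of -0.07, with 1 lower, 3 higher and 24 not called. Among the called partners, named after their values were seen, were Timm8b beside Sdhd (-0.50 ± 0.14, adjusted p = 0.0106), and, higher, Mrpl47 beside Ndufb5 (0.53 ± 0.16, adjusted p = 0.0218) and Gabpa beside Atp5j. Gabpa and Atp5j start 700 bases apart and went opposite ways, and 397 annotated exon bases overlap between them, 12.7% of those of Atp5j. The strand setting of the counts is not given in the sources used here, so reads of such stretches cannot be assigned with certainty. Exon bases are shared with another counted gene on the opposite strand by 22 of the 77, up to 39% of a gene's exon bases (Ndufb6). Processed pseudogenes of subunit genes can also take or lend reads.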

How the data were processed

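The authors' deposited table holds raw counts per gene for 27 libraries and 22340 rows. The submitters' processing notes name the aligner STAR 2.5.0a, the counter featureCounts 1.4.3-p1, the build mm10 and edgeR. Which annotation and strand setting were used was not given in the sources used here. From these counts, filterByExpr (minimum count 10, minimum total 15) kept 18087 rows and took out 4253 with 0.0116% of the counts. After TMM normalization 1 quasi-likelihood model of edgeR 4.0.16 with a mean per group was fitted to all libraries, and p-values were adjusted by Benjamini-Hochberg over all tested genes (threshold 0.05). SE derive from the test statistic. The procedure was tested on simulated data.

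Coordinates, lengths and neighbours came from GENCODE release M21. The 77 genes, the lists of other genes and the tests were chosen with earlier results of these data known, and the runs of the other lists under alternatives were added after seeing the data. Genes named were, per comparison and direction, up to 8 called genes with the smallest p, a fixed set of core subunits, the extremes of each complex at 24 h and the genes beside the level limit; some are left out for brevity, and 1 result on a neighbouring gene is not reported here. Replicate numbers mark surgery days, so they pair libraries by design. After removal of group means, correlations between libraries of the same number averaged 0.05 (108 pairs, 31 above 0.1), and between libraries of different numbers -0.02 (216 pairs, 15 above 0.1). A block of replicate number was an alternative, as were DESeq2 1.42.0, its size factors, other filters, offsets for GC content or length, and omission of mitochondrial genes, of single libraries and of other groups. A group cut to 2 libraries shares the spread of the others. The p-values of the main model rest on the spread between libraries of the same group, which come from different surgery days. That model leaves the pairing by day aside. Depth ran from 26505996 to 48830897 counts per library.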

Additional observations from a re-analysis of the deposited data

Results flagged for a closer look

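The hemispheric effect (ipsilateral against contralateral) differed between 24 h and 3 h, by the test of the difference itself, for 3 of the 77 genes. On the log2 scale this difference was -0.69 for Sdhb, -0.62 for Uqcrc1 and -0.70 for Atp5k. None of these 3 calls held under every alternative. Groups of 3 libraries are too small for a rule on single outlying samples.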

How the results depend on the processing

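No estimate of a called gene changed sign under any alternative run. Against contralateral cortex at 24 h the count of 43 lower genes stayed between 29 (compared groups only) and 55 (GC correction with a replicate block), and leaving out 1 library gave 16 to 40. Against sham at 24 h it was 24 to 56 with 1 library left out. At 6 h against contralateral cortex (3 genes) it was 5 with a replicate block, 10 with GC correction, 13 with both, 0 with length correction, 15 without both libraries that stood apart, 11 with the compared groups only and 6 by DESeq2, and 0 to 9 with 1 library left out. At 12 h (8 genes) it was 13 with GC correction and a replicate block, 3 with length correction, 13 without both libraries and 2 to 9 with 1 library left out. Against sham at 6 h (8 genes) GC correction gave 16, with a replicate block 18, length correction 2, both libraries out 20, compared groups only 17, DESeq2 14, and 1 library out 0 to 13. Against sham at 12 h (13 genes) GC correction with a replicate block gave 20, length correction 6, both libraries out 21, compared groups only 20, and 1 library out 3 to 13. For the change in the hemispheric effect from 3 h to 24 h (3 genes), mitochondrial genes left out gave 6, the replicate block 16, GC correction 23, with the block 33, length correction 17, both libraries out 6 (none of the 3 among them), compared groups only 0, DESeq2 26, and 1 library out 0 to 22. For any difference between times (0 genes), the replicate block gave 1, GC correction 4, with the block 5, both libraries out 5, DESeq2 2, and 1 library out 0 to 2. The causes were not tested. The replicate block moved no other count by over 1.5 times and ended no call of a member. Depth limits Cox6a2 most, the least abundant gene at 2.25 CPM.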

Other observations

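Some of the factors that build the complexes fell too. Of 41 tested assembly factors, 8 were lower at 24 h against contralateral cortex and 0 higher, with a median of -0.16. That is 19.5% lower, where 9.36% of all tested genes were. The 8 were Ndufaf7, Ndufaf3 and Ecsit for complex I, Uqcc2 and Ttc19 for complex III, and Coa3, Cox14 and Pet100 for complex IV. The count was 2 without contralateral replicate 1, 4 without contralateral replicate 2, 5 without ipsilateral replicate 1 and 3 without ipsilateral replicate 3. The difference from the subunits was not tested.

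Among 21 mobile carriers, channels and inhibitors of the inner and outer membrane, 7 were lower and 1 higher. As shares these are 33.3% and 4.76%, beside 9.36% and 9.74% of all tested genes. The outer membrane channel gene Vdac1 fell from 276 ± 8.66 to 192 ± 16.8 CPM (SD, n = 3; edgeR adjusted p = 0.00074), the ADP/ATP carrier gene Slc25a4 from 319 ± 25.5 to 249 ± 10.7 CPM (adjusted p = 0.00945), and Atpif1, the inhibitor of ATP synthase, from 26.4 ± 3.47 to 18.4 ± 1.67 CPM (adjusted p = 0.0046). The estimate of Cycs, cytochrome c, was -0.06 ± 0.13 (adjusted p = 0.799). The uncoupling protein gene Ucp2 rose by 1.04 ± 0.27 on the log2 scale (adjusted p = 0.00822), and by 0.55 (adjusted p = 0.0972) without ipsilateral replicate 1, the library with the highest leukocyte markers. Without contralateral replicate 1 its adjusted p was 0.052. The number lower was 3 without contralateral replicate 1 and 4 without ipsilateral replicate 3.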
